A study of Mus musculus with 4 samples.

Results

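Genes of adipogenesis and lipid handling were followed across the stromal cell types of mouse bone marrow. They comprised the transcription factors Pparg, Cebpa and Cebpb, the adipokine Adipoq, the lipase Lpl, the apolipoprotein Apoe and the lipid droplet genes Plin2, Hilpda and G0s2. These are 9 of the 10 genes chosen by name, out of 27998 measured genes. Cebpd is not analysed here.

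Adipogenesis is the differentiation of a stromal progenitor into a fat cell. C/EBPbeta acts early, and PPARgamma and C/EBPalpha then maintain each other and switch on fat cell genes such as Adipoq and Lpl. In marrow, stromal cells that supply CXCL12 and stem cell factor to blood stem cells are known to transcribe several of these genes, Adipoq among them, without carrying the large droplet of a mature adipocyte. Within any cell, fatty acids released by lipoprotein lipase or taken up from apolipoprotein E particles can be stored in droplets coated by perilipin 2, whose breakdown by the lipase ATGL is inhibited by HILPDA and G0S2.

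The cells came from C57BL/6 mice, either wild type or with a model of myelodysplastic syndrome (MDS), a clonal blood disorder. The NHD13Tg library, from mice with a Nup98-HoxD13 fusion, has the wild-type library WT_A1 as its control. The library with genotype Abcg2-MDS/AML is compared with the wild-type library named Control. The labels give no age, sex, number of pooled animals, transgene promoter or way in which the Abcg2 disease was produced. All 4 libraries hold CD45-TER119-CD31-CD140a+CD51+ cells sorted from collagenase-digested femora and tibiae and read by 3' droplet sequencing, which counts transcripts through unique molecular identifiers (UMIs). With 1 library per group, a difference within a pair describes 2 libraries and has no replicate check or p-value.

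A cell was a barcode with at least 2000 UMIs, at least 500 genes and at most 10% mitochondrial UMIs, which left 4973, 5766, 5158 and 5586 cells. Here and below, 4 values in a row follow the order WT_A1, NHD13Tg, Control, Abcg2-MDS/AML. Cells had median depths of 4186 to 5452 UMIs. Libraries held 36133716 to 46033790 UMIs in all and shared 6 to 14 cell barcodes per pair of libraries. Cell types were set by gates on other genes, in UMIs per 10000 (u). The MSC gate required Cxcl12, Kitl and Hp to sum to 60 u. Osteoblasts required 100 u of Bglap and Bglap2, chondrocytes 15 u of the 3 Col9a genes, fibroblasts 8 u of Dpt, Clec3b and Col14a1, and tendon cells 30 u of Thbs4 and Myoc. A cell could pass several gates, as 3.06% to 16.9% of cells did, mostly fibroblast with tendon. No doublet caller was run. Levels are CPM, the gene's UMIs per 1e+06 UMIs summed over a type in a library. Counts are not corrected for transcript length, so levels are compared between samples and not between genes. Parentheses after a value hold 95% intervals that cover counting error only.

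The MSC gate took 763, 1988, 432 and 248 cells. The Abcg2-MDS/AML cells stand apart from the name of the gate. Only 34.3% of them reached it on Cxcl12 and Kitl alone, against 96.3%, 97.5% and 98.6% in the other libraries in the same order, and the remaining 163 cells needed Hp, the haptoglobin gene. Cxcl12 stood at 3344 CPM there, against 16800.4 to 17232 CPM in the other libraries. The MSC markers Lepr, Ebf3, Foxc1, Esm1, Gas6 and Grem1 summed to 5188, 4606, 6431 and 1978 CPM in the same library order. These cells are therefore called MSC-gated, and Abcg2 results are also given for the gate on Cxcl12 and Kitl alone. In the libraries used for each type, the osteoblast, chondrocyte, fibroblast and tendon marker lists each had their highest sum in the type they mark. The MSC markers separated less well in Abcg2-MDS/AML, with 1978 CPM in MSC-gated and 1852 CPM in fibroblast-gated cells. Osteoblasts numbered 8 in Abcg2-MDS/AML and chondrocytes 4 and 6 in the NHD13 pair, too few for use.

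Stretches of sequence show the start sites of the genes whose levels the results turn on. They are RefSeq promoters on GRCm38.p6, matched by symbol for 8 of the 9 genes (all but Lpl), and end at the base before a transcription start. The Adipoq promoter lies at chr16:23146286-23146535 on the plus strand. Capitals mark CCAAT or its reverse complement ATTGG, which starts 34, 27 and 7 bases before the start. Of 32851 promoters, 33.8% hold these letters in the same 250 bases.
Adipoq promoter: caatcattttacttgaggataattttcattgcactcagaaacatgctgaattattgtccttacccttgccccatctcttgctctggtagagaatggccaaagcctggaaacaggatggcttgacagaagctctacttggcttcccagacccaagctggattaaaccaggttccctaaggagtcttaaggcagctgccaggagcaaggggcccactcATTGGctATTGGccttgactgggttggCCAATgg
The Pparg gene has 3 starts in the table, and the most 3′ of them, at chr6:115421816-115422065 on the plus strand, is shown because it holds the letters TTGCNNAA of a C/EBP site, or the reverse TTNNGCAA, at 215 and 16 bases before the start (capitals). These letters occur in 9.56% of promoters. None of the other starts matched for these genes, including the other Pparg starts, held them.
Pparg promoter, 3′ start: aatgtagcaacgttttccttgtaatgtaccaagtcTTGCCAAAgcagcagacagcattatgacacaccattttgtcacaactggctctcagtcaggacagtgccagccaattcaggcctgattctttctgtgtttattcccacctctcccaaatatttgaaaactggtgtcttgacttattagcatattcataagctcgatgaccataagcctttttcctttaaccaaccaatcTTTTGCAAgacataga
Upstream of the 3′ of both Hilpda starts, the core letters of a HIF site (ACGTG or GCGTG, or the reverse CACGT or CACGC) occur at 111, 43 and 8 bases before the start, shown in capitals in short windows at chr6:29272505-29272529, chr6:29272573-29272597 and chr6:29272608-29272625 on the plus strand. At least 1 match of this kind occurs in 38.6% of promoters. The other Hilpda start held none, and the letters also occurred before a start of Cebpb, Plin2, Pparg and G0s2.
Hilpda window 1: accgcgagccGCGTGctttccgtga
Hilpda window 2: tggccagcggACGTGccccagggcg
Hilpda window 3: ggttcggtacGCGTGcgc
The matches are descriptions of letters, and binding was not measured.

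The first comparison asked in which cell types the genes were transcribed. MSC-gated cells had the highest level in 34 of 36 combinations of gene and library. Neither this count nor the separation of levels described below for Pparg and Adipoq was worked out over all genes. The exceptions were Lpl and G0s2 in Abcg2-MDS/AML, both higher in fibroblasts. Some of the leads were small. Hilpda stood at 1.003 times the chondrocyte level in Control and 1.13 times in Abcg2-MDS/AML, and Plin2 at 1.28 times the tendon level in WT_A1. The plot of levels by type and library shows the widest gap for Adipoq, whose MSC level was 60.8 to 124 times that of the next type in every library.

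**Figure D1:**
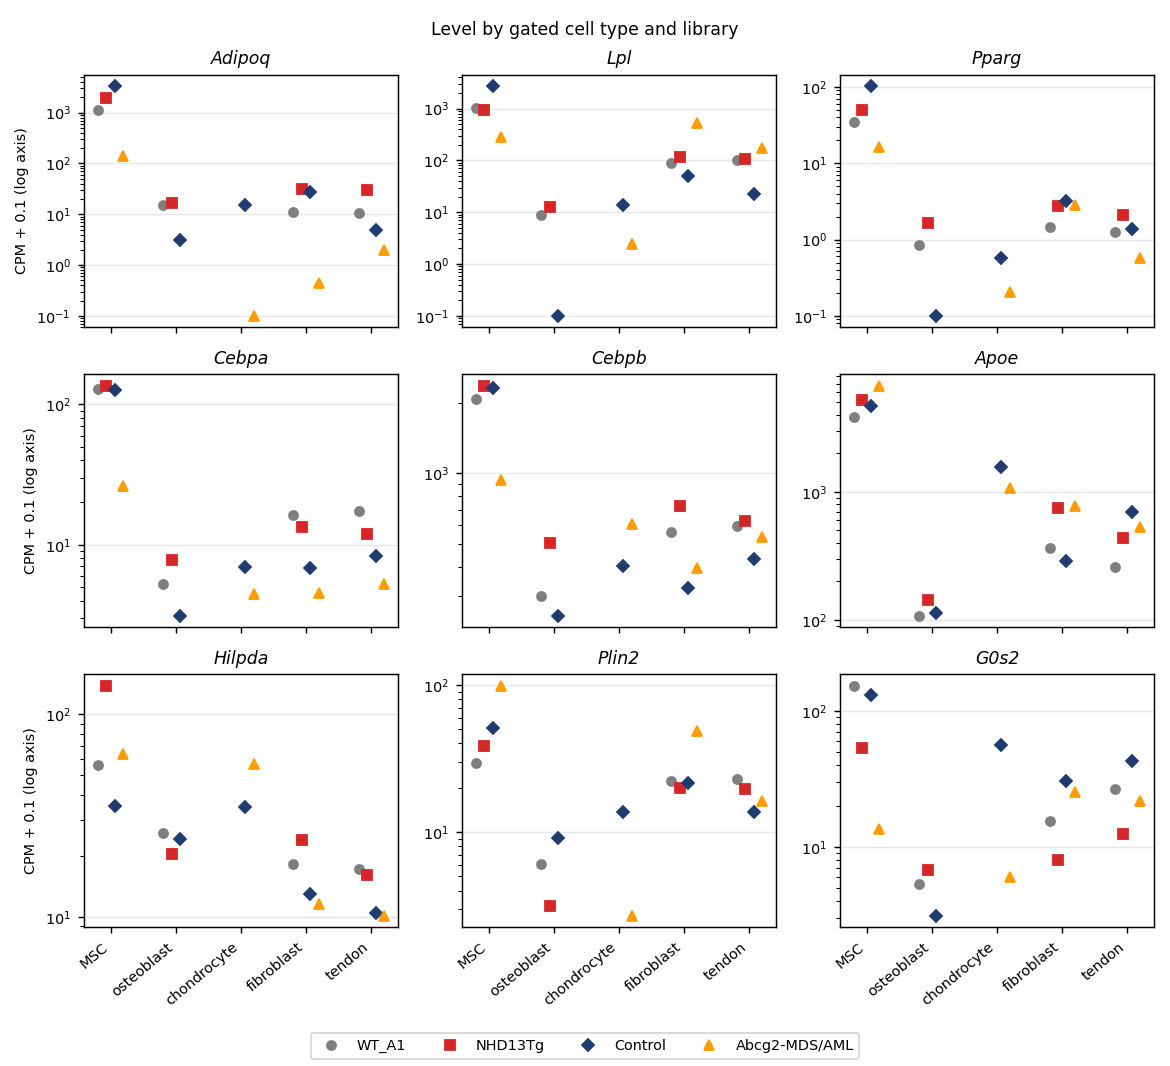
Level of each gene, as CPM + 0.1 on a log axis, in the 5 gated types, with 1 symbol per library and sums of at least 20 cells drawn. MSC-gated cells lie highest in 34 of 36 combinations of gene and library, and Lpl and G0s2 of Abcg2-MDS/AML are the exceptions. Hilpda of Control is nearly level with chondrocytes. No such count was made over all genes.

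Among the transcription factors, Pparg, the nuclear receptor that drives fat cell fate, stood at 34.4 CPM in WT_A1 MSC-gated cells, 49.8 in those of NHD13Tg, 102 in Control and 16.2 in the Abcg2 model. In fibroblasts it stood between 1.38 and 3.07 CPM, in tendon cells between 0.468 and 1.99, and in chondrocytes of Control and Abcg2-MDS/AML at 0.474 and 0.108. The lowest MSC library thus lay above every other type. Cebpa, its partner, stood at 128, 135, 127 and 26.1 CPM in MSC-gated cells in the same library order. In the other types Cebpa lay between 3.01 and 17.3 CPM. Cebpb, the early factor, was broader, at 2067, 2352, 2305 and 939 CPM in MSC-gated cells and 247 to 728 CPM in the other types.

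Adipoq, the adiponectin gene, stood at 1107 CPM (1074 to 1141) in WT_A1 MSC-gated cells, 1935 (1907 to 1962) in those of NHD13Tg, 3339 (3253 to 3427) in Control and 138 (117 to 162) in the Abcg2 model. The other types held 0 to 31.8 CPM, and the groups of libraries did not overlap. A UMI of Adipoq was found in 78.5%, 90.5%, 95.6% and 25.8% of MSC-gated cells, and in 68.8%, 84.6%, 93.1% and 17.7% after every cell was thinned to 2000 UMIs. Osteoblasts, which should lack the gene, gave 9.17%, 6.90% and 2.90% in WT_A1, NHD13Tg and Control, at median depths of 11033, 12884 and 7640 UMIs against 4423, 4541 and 3560 in MSC-gated cells, and 7.34%, 4.14% and 1.45% after thinning. Free RNA, read from barcodes with 1 to 100 UMIs, carried Adipoq at 160, 447, 122 and 13.8 CPM, and its part in the low levels of the other types was not tested.

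Lpl, lipoprotein lipase, stood at 1004, 942, 2723 and 279 CPM in MSC-gated cells. In fibroblasts it stood at 90.5, 116 and 50.4 CPM in WT_A1, NHD13Tg and Control and at 516 CPM in Abcg2-MDS/AML. In that library the fibroblast level passed the MSC level. Chondrocytes and osteoblasts held at most 13.5 CPM, and Control osteoblasts held 0 UMIs of Lpl in 69 cells, which allows up to 4.35% of cells with a UMI.

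Apoe, which carries lipid out of and into cells, was read in nearly all MSC-gated cells, at 3826, 5195, 4683 and 6712 CPM. Chondrocytes came next in the libraries that had them, at 1576 CPM in Control and 1073 in Abcg2-MDS/AML. Osteoblasts were lowest, at 108 to 144 CPM. Free RNA held 878 to 1982 CPM of Apoe, above every gated type but the MSC-gated cells in WT_A1, NHD13Tg and Abcg2-MDS/AML, and its part in their levels was not tested.

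Of the droplet genes, Plin2, the droplet coat, stood at 29.3, 38.6, 50.8 and 98.3 CPM in MSC-gated cells and 19.8 to 48.1 CPM in fibroblasts. In WT_A1 the MSC level was 1.10 times that of free RNA. Hilpda, a droplet protein gene induced by low oxygen, stood at 56.3, 138, 35.1 and 64.0 CPM in MSC-gated cells. Chondrocytes held 34.97 CPM in Control and 56.7 in Abcg2-MDS/AML, and free RNA of Control 35.01 CPM. The interval of the Control MSC level, 26.8 to 45.1 CPM, held both Control values, so that level was not clearly above either. G0s2, an ATGL inhibitor also expressed by neutrophils, stood at 152, 53.3, 131 and 13.5 CPM in MSC-gated cells. Its Abcg2-MDS/AML level was 0.580 times that of free RNA.

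The types were then tested over libraries with edgeR's quasi-likelihood test on 17 sums of cells that passed exactly 1 gate, with the library as a block and Benjamini-Hochberg adjustment over 11734 genes and the 10 pairs of types together. At an adjusted p under 0.05, 34.8% of all 117340 gene contrasts were called. Of the 90 contrasts of the 9 genes, 46 were called. MSC-gated cells were higher in 33 of 36 contrasts with other types and lower in 0. Across all genes, 22.9% were called higher and 18.3% lower in MSC-gated cells against osteoblasts, 20.6% and 21.2% against chondrocytes, 20.7% and 18.8% against fibroblasts, and 19.8% and 19.7% against tendon cells.

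Adipoq averaged 1739 ± 1392 CPM (SD, n = 4 libraries) in MSC-gated cells and 2.61 ± 1.71 CPM (n = 4) in fibroblasts. The edgeR log2 fold was 9.15 (SE 0.672, adjusted p = 2.65e-07), higher in 4 of 4 libraries. Pparg averaged 54.0 ± 36.7 CPM against 1.77 ± 1.18 CPM in fibroblasts, with an edgeR log2 fold of 4.64 (adjusted p = 3.77e-06). Cebpa averaged 112 ± 54.6 against 7.76 ± 3.84 CPM, a log2 fold of 3.61 (adjusted p = 3.63e-07). For Lpl the spread was wider, 1293 ± 1081 against 159 ± 231 CPM, and the edgeR log2 fold of 3.67 had an adjusted p of 0.00989. Without WT_A1 or without NHD13Tg that call was lost, at adjusted p = 0.0756 and 0.0710.

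The 3 contrasts not called were Hilpda and G0s2 against chondrocytes and Plin2 against fibroblasts. The edgeR log2 fold of Hilpda over chondrocytes was -0.27 (SE 0.309, adjusted p = 0.547), and it was 0.18 without the library block. That of G0s2 was 1.69 (adjusted p = 0.0667), and that of Plin2 over fibroblasts 0.84 (adjusted p = 0.140). Without Abcg2-MDS/AML, Plin2 over fibroblasts was called (adjusted p = 0.00969). The same fit leaves 1 chondrocyte sum, which is assumed to vary like the other types, and there G0s2 over chondrocytes was called (adjusted p = 0.0182) and Apoe was not (adjusted p = 0.101). The count of MSC-higher contrasts was 27 without NHD13Tg, 29 without WT_A1, 33 without Control and 34 without Abcg2-MDS/AML.

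Among the other 4 types, 13 of 54 contrasts were called. The shares of all genes called higher and lower were 13.7% and 18.6% for osteoblasts against chondrocytes, 17% and 19.9% against fibroblasts and 15.2% and 19.7% against tendon cells, 19.4% and 17.5% for chondrocytes against fibroblasts and 16.4% and 16% against tendon cells, and 5.68% and 6.57% for fibroblasts against tendon cells. Here and in the contrasts with MSC-gated cells, chondrocyte sums came only from Control and Abcg2-MDS/AML (n = 2). Osteoblast sums came from WT_A1, NHD13Tg and Control (n = 3), so these types shared a library only in Control. Apoe separated the 4 types most clearly. By edgeR it was higher in chondrocytes than in osteoblasts (log2 fold of osteoblast over chondrocyte -3.46, adjusted p = 6.72e-05), fibroblasts (1.60, adjusted p = 0.00897) and tendon cells (1.76, adjusted p = 0.00339), and osteoblasts were also below fibroblasts and tendon cells. Hilpda was likewise higher in chondrocytes than in fibroblasts (edgeR log2 fold 2.31, adjusted p = 7.12e-05), tendon cells and osteoblasts. Lpl and Plin2 were higher in fibroblasts than in chondrocytes and osteoblasts, and Pparg was higher in fibroblasts than in chondrocytes (adjusted p = 0.0129). For Adipoq, Cebpa, Cebpb and G0s2 no neighbours among these 4 types differed at the threshold.

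Within the MSC gate, the level of the fat cell genes followed that of the gate genes in 3 libraries. Adipoq rose from 232 CPM in WT_A1 cells at 60 to 120 u, through 914 CPM at 120 to 240 u, to 1486 CPM at 240 u and above. The same ranges gave 485, 1451 and 2318 CPM in NHD13Tg, and 888, 3106 and 4161 CPM in Control. In Abcg2-MDS/AML they gave 112, 168 and 210 CPM. Lpl went from 463 to 1317 CPM in WT_A1, from 350.0 to 1091 in NHD13Tg and from 1084 to 3586 in Control, while in Abcg2-MDS/AML it stood at 307, 274 and 129 CPM. Cebpa had the same order of ranges, with 61.2 and 163 CPM at the ends in WT_A1 and 23.1 and 40.4 CPM in Abcg2-MDS/AML. The plot by marker level shows that the Abcg2-MDS/AML cells lay below the other libraries in every range for Adipoq, Lpl and Cebpa and above them for Apoe, although in the lowest range the interval of Lpl overlapped that of NHD13Tg and the interval of Cebpa that of Control. Each range is a range of the summed gate genes and not a type.

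**Figure D2:**
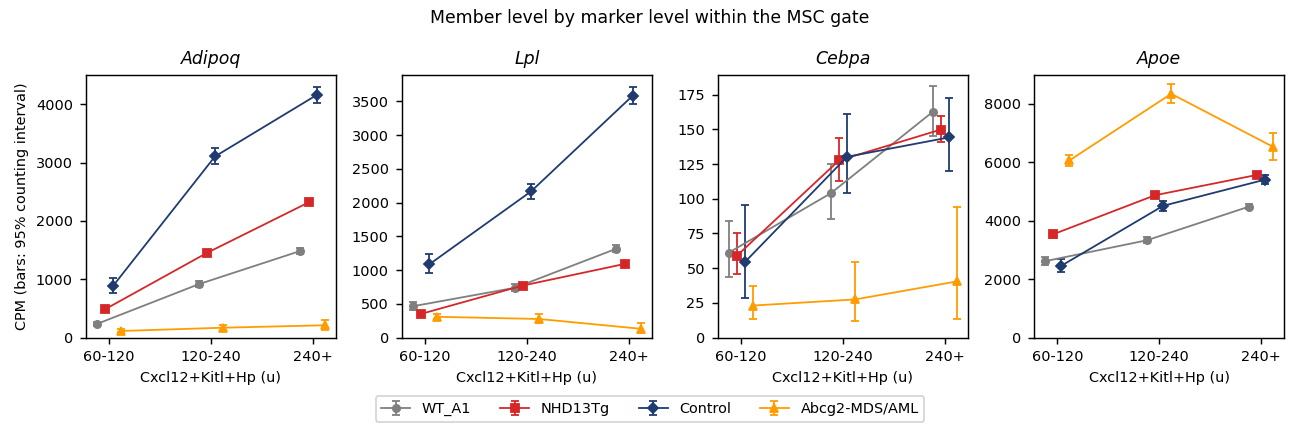
CPM of Adipoq, Lpl, Cebpa and Apoe (linear axes from 0) in MSC-gated cells split by the summed gate genes in UMIs per 10000, with 95% counting intervals and 1 line per library. Adipoq rises from 232 to 1486 CPM in WT_A1 across the ranges and stays between 112 and 210 CPM in Abcg2-MDS/AML.

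Adipoq and Lpl were also detected in the same cells. After thinning, 93.5% (90.7 to 95.7) of Control MSC-gated cells with an Adipoq UMI had one of Lpl, against 46.7% (28.3 to 65.7) of those without. In NHD13Tg the shares were 74.5% (72.4 to 76.6) and 54.8% (48.9 to 60.5), and in WT_A1 70.3% and 53.2%. In Abcg2-MDS/AML they were 49.0% (34.4 to 63.7) and 29.6% (23.4 to 36.5). Cells share their library, so these intervals describe each library alone.

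Across the 17 sums, the genes whose log2(CPM + 10) followed Adipoq most closely were Esm1 (Pearson's r 0.992), Tle2 (0.983) and Gdpd2 (0.982). Esm1 was also among the closest to Pparg (0.977) and Cebpa (0.976). Lpl was closest to Ism1 (0.971), Cebpb to Fhl2 (0.956), Apoe to Ier5 (0.945), Plin2 to Tmem173 (0.933) and G0s2 to Topors (0.922). The gene closest to Hilpda was Ppard (0.930), a nuclear receptor that senses fatty acids. Among the members themselves, Adipoq and Pparg had an r of 0.971 and Hilpda and G0s2 one of 0.256. The 17 points share libraries, depth and the split between MSC-gated cells and the rest, and the values are a description.

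The second comparison asked how the genes differed between NHD13Tg and its wild type. In MSC-gated cells Hilpda was higher, at 138 CPM (131 to 146) against 56.3 (49.0 to 64.4), 2.45-fold with a log2 ratio of 1.29 (1.08 to 1.51). G0s2 was lower, at 53.3 CPM (48.9 to 58.0) against 152 (140 to 165), 2.85-fold with a log2 ratio of -1.51 (-1.68 to -1.34). These were the 2 of 9 genes past a size rule of 2-fold with an interval leaving out a ratio of 1. Of 6154 genes with at least 20 CPM in 1 library, 1.04% were higher and 1.88% lower by the same rule. The median log2 ratio was 0.39 over the 9 genes and -0.04 over all genes.

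The share of cells with a Hilpda UMI was 26.4% in NHD13Tg and 13.4% in WT_A1, or 16.6% and 6.82% after thinning, against 9.52% and 10.1% in fibroblasts before thinning and 3.45% and 3.62% after it, whose median depths were 5480 and 5556.5 UMIs. A single WT_A1 cell held 12.3% of its library's Hilpda, and without the top cell of each library the log2 ratio was 1.44. A list of 12 hypoxia genes summed to 2194 CPM in NHD13Tg and 1380 in WT_A1, with 1 of 8 measured members past the size rule, and Car9 was at 0 in NHD13Tg. Its part in the Hilpda difference was not tested.

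G0s2 had a UMI in 16.8% of NHD13Tg and 31.8% of WT_A1 MSC-gated cells, or 9.46% and 19.1% after thinning. A list of 7 neutrophil and myeloid markers summed to 619 CPM in NHD13Tg and 1466 in WT_A1, with Adgre1 at 0 in WT_A1 and S100a8 at 263 and 796 CPM. In cells with no UMI of S100a8, S100a9 or Lyz2 the log2 ratio of G0s2 was -1.504 (-1.69 to -1.32).

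The remaining 7 genes did not pass the size rule. Adipoq came nearest, at 1935 against 1107 CPM, a log2 ratio of 0.80 (0.76 to 0.85). Pparg had a log2 ratio of 0.53 (0.25 to 0.83), Apoe 0.44 (0.41 to 0.47), Plin2 0.39 (0.09 to 0.71), Cebpb 0.19 (0.15 to 0.22) and Cebpa 0.07 (-0.08 to 0.23). Lpl stood at 942 against 1004 CPM, a log2 ratio of -0.09 that turned to 0.00701 with TMM scaling, which shifts this comparison by 0.10.

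The fibroblast and tendon sums could include cells that also passed the MSC gate. In these sums and in cells in no gate, Adipoq was also higher in NHD13Tg. In fibroblasts it stood at 31.8 against 11.2 CPM, a log2 ratio of 1.503 (1.23 to 1.79), and in tendon cells at 30.2 against 10.4 CPM, a log2 ratio of 1.53 (1.15 to 1.93). Apoe in fibroblasts stood at 745 against 366 CPM, a log2 ratio of 1.03 (0.98 to 1.08). In fibroblasts 0.375% of 5596 genes were higher by the rule and 0.679% lower, and in tendon cells 0.41% of 5608 were higher. Cells in no gate had Adipoq at 22.5 against 4.79 CPM and Apoe at 507 against 159 CPM, the 2 of 9 genes past the rule there, where 0.621% of 5637 genes were higher and 0.603% lower. The free RNA of NHD13Tg also carried more Adipoq, 447 against 160 CPM, and more Apoe, 1765 against 878 CPM. In cells passing exactly 1 gate neither gene passed the rule, with log2 ratios of 0.97 (0.08 to 1.92) for Adipoq and 0.85 (0.78 to 0.91) for Apoe in fibroblasts. In such cells Adipoq averaged 2.61 ± 1.71 CPM in fibroblasts and 2.43 ± 2.91 CPM in tendon cells (SD, n = 4 libraries). The rule required at least 20 CPM in 1 library, so Adipoq could not pass it there. In tendon cells G0s2 was lower, at 12.3 against 26.3 CPM, a log2 ratio of -1.09 (-1.503 to -0.71), where 0.785% of genes were lower. Neutrophil and myeloid markers in the same tendon cells summed to 16.4 against 191 CPM (2 of 2 measured genes lower). Their part in the G0s2 difference was not tested. In osteoblasts 0 of 9 genes passed the rule, against 1.51% of 4757 genes higher and 2.52% lower.

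The third comparison asked how the genes differed between Abcg2-MDS/AML and Control. In MSC-gated cells the regulators and the fat cell genes were lower, and Apoe, Plin2 and Hilpda were not. Of the 9 genes, 6 were lower and 0 higher, where 12.5% of 6402 genes were lower and 6.5% higher by the size rule. The median log2 ratio was -2.26 over the 9 genes and -0.15 over all genes. The plot of ratios in MSC-gated cells shows both pairs side by side.

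**Figure D3:**
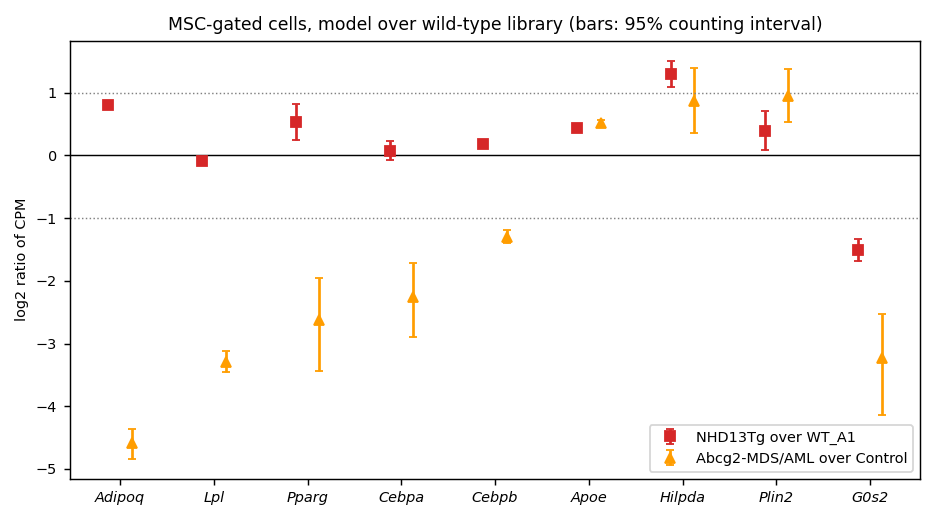
Log2 ratio of CPM, model over wild-type library, in MSC-gated cells for the 9 genes, with 95% counting intervals and dotted lines at 2-fold. In the Abcg2 pair 6 genes lie below the lower line, and in the NHD13 pair Hilpda lies above the upper line and G0s2 below the lower.

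Adipoq stood at 138 against 3339 CPM, 24.1-fold lower with a log2 ratio of -4.59 (-4.84 to -4.37). Lpl stood at 279 against 2723 CPM, 9.76-fold lower with a log2 ratio of -3.29 (-3.46 to -3.12). G0s2 was 9.39-fold lower, at 13.5 against 131 CPM. Among the transcription factors, Pparg was 6.15-fold lower (16.2 against 102 CPM, 18 against 175 UMIs), Cebpa 4.80-fold (26.1 against 127 CPM) and Cebpb 2.45-fold (939 against 2305 CPM). Each of these 6 intervals lay wholly below a log2 ratio of -1.

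Plin2, in contrast, stood at 98.3 against 50.8 CPM, a log2 ratio of 0.95 (0.53 to 1.37). Hilpda stood at 64.0 against 35.1 CPM, a log2 ratio of 0.87 (0.35 to 1.39), and Apoe at 6712 against 4683 CPM, a log2 ratio of 0.52 (0.47 to 0.57). None of the 3 passed the rule. TMM scaling, which shifts this comparison by 0.13, put Hilpda at 1.0003 and Plin2 at 1.08, both past it.

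Because of the gate, the same comparison was made in cells that reached 60 u on Cxcl12 and Kitl alone, 85 in Abcg2-MDS/AML and 426 in Control. The 6 lower genes were lower there too, with log2 ratios of -6.14 for Adipoq, -3.92 for Pparg, -3.17 for Lpl, -2.50 for G0s2, -2.17 for Cebpa and -1.61 for Cebpb. The 85 cells are part of the MSC-gated cells that held 18 UMIs of Pparg, 15 of G0s2 and 29 of Cebpa. The ratios of these genes thus rest on few UMIs, and their order was not tested. Apoe turned to -0.24 (-0.32 to -0.16) and Hilpda to -0.63 (-1.98 to 0.36). Inside the Abcg2-MDS/AML library the cells that needed Hp held Apoe at 8031 CPM and Hilpda at 84.4 CPM, against 4001 and 22.0 CPM in the others. Adipoq showed the same order, at 182 against 46.8 CPM, while Lpl (265 against 306 CPM) and Cebpa (25.5 against 27.6 CPM) had overlapping intervals. In MSC-gated cells with a UMI of Lepr, 156 and 396 cells, the log2 ratio of Adipoq was -4.18 and that of Lpl -3.15.

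**Figure D4:**
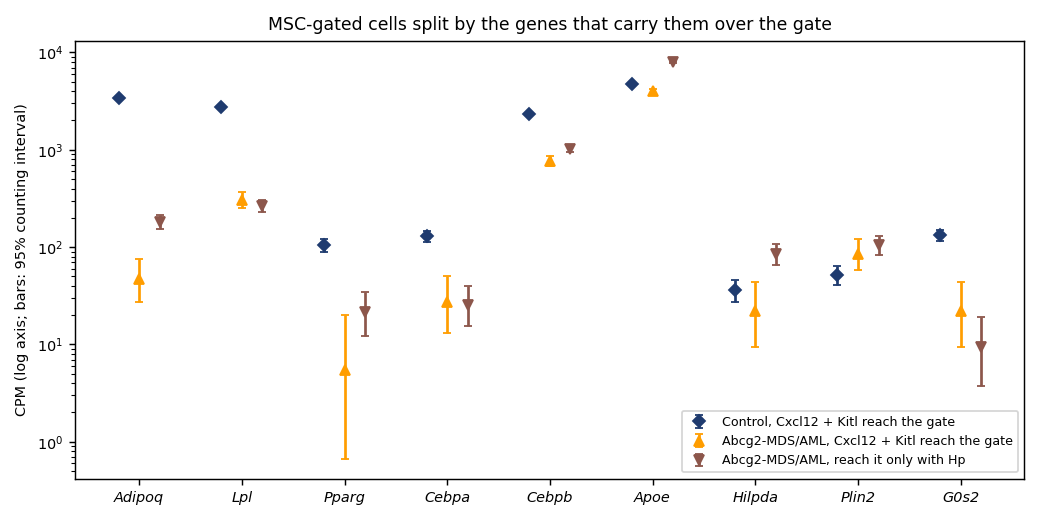
CPM (log axis, 95% counting intervals) of the 9 genes in MSC-gated cells of Control and Abcg2-MDS/AML that reach the gate on Cxcl12 and Kitl alone, and in those of Abcg2-MDS/AML that reach it only with Hp. Adipoq, Lpl, Pparg, Cebpa, Cebpb and G0s2 lie below Control in both subsets, while Apoe stands at 4001 CPM in the first Abcg2-MDS/AML subset and 8031 CPM in the second.

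Other lists moved with this comparison in MSC-gated cells. Neutrophil and myeloid markers summed to 9.02 CPM in Abcg2-MDS/AML and 756 in Control, with Ptprc, S100a9, Tyrobp and Adgre1 at 0 in the former. Erythroid markers summed to 0.902 against 132 CPM, chondrocyte markers to 710 against 1317 CPM (3 of 6 measured genes lower), osteoblast markers to 4091 against 4924 CPM (3 of 4 lower), and acute phase genes to 3712 against 2725 CPM (4 of 7 higher, 1 lower). Fibroblast markers summed to 521 against 105 CPM, mural markers to 157 against 35.1 CPM and the immediate early genes raised by tissue dissociation to 16806 against 29664 CPM. Their part in the results was not tested. Without cells holding a UMI of S100a8, S100a9 or Lyz2, the log2 ratio of G0s2 was -3.17 and that of Adipoq -4.58.

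In fibroblasts, tendon cells and cells in no gate of the Abcg2 pair Lpl was higher in the model. In chondrocytes it was lower, at 2.38 against 13.5 CPM, a log2 ratio of -2.48 (-3.24 to -1.84), with both levels under 20 CPM. Fibroblasts held 516 CPM (490.4 to 543) in Abcg2-MDS/AML against 50.4 (40.1 to 62.5) in Control, 10.2-fold higher with a log2 ratio of 3.35 (3.04 to 3.70). The share of fibroblasts with an Lpl UMI was 42.7% against 8.45%, or 35.8% against 4.90% after thinning, against 2.04% and 2.86% in chondrocytes before thinning. Tendon cells held 176 against 22.7 CPM, a log2 ratio of 2.95 (2.61 to 3.33), and cells in no gate 90.4 against 6.88 CPM, a log2 ratio of 3.71 (3.48 to 3.96). Lpl was thus lower in MSC-gated cells and higher in 3 other sets of cells of the same library. In cells passing exactly 1 gate the ratio was 4.65 in fibroblasts and 3.53 in tendon cells, and free RNA held 67.9 CPM against 115, the opposite order. Marker lists differed in the same fibroblast-gated cells, with chondrocyte markers at 220 against 1718 CPM (6 of 6 measured genes lower), tendon markers at 75.6 against 865 CPM (5 of 5 lower), mature adipocyte markers at 182 against 1.84 CPM (1 of 1 higher), acute phase genes at 2332 against 718 CPM (5 of 6 higher) and MSC markers at 1852 against 638 CPM (1 of 4 higher). In tendon-gated cells chondrocyte markers stood at 696 against 3879 CPM (6 of 6 lower). In cells in no gate erythroid markers stood at 7.92 against 6307 CPM (5 of 5 lower). Neutrophil and myeloid markers stood there at 84.7 against 1723 CPM (3 of 3 lower) and MSC markers at 640 against 174 CPM (3 of 4 higher, 1 lower). The part of all these lists in the differences of Lpl, Apoe, Plin2, Cebpb and Hilpda in these sets of cells was not tested.

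Fibroblasts of Abcg2-MDS/AML also held more Apoe, 781 against 286 CPM (log2 ratio 1.45, 1.30 to 1.59), and more Plin2, 48.1 against 21.5 CPM (1.15, 0.62 to 1.74). There 6.37% of 6008 genes were higher by the rule and 13.3% lower. In tendon cells 7.27% of 5611 genes were higher and 10.4% lower. In cells in no gate Apoe (1347 against 286 CPM), Cebpb (676 against 255 CPM) and Hilpda (21.1 against 9.65 CPM) were higher beside Lpl, where 14.6% of 6104 genes were higher and 23.6% lower. Adipoq in fibroblasts rested on 1 against 44 UMIs, of which a single Control cell held 72.7%, and without the top cell of each library the log2 ratio was -5.51, with under 20 CPM left in both libraries.

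Chondrocytes held G0s2 at 5.95 CPM in Abcg2-MDS/AML and 56.3 in Control, 9.39-fold lower with a log2 ratio of -3.23 (-3.67 to -2.84), where 14.9% of 5021 genes were lower and 3.55% higher. Free RNA held 23.3 and 61.3 CPM of G0s2. Adipoq had 0 UMIs in 832 chondrocytes of Abcg2-MDS/AML and 130 UMIs in 1048 of Control, at least 47.5-fold lower with 3 counts in place of 0 over the summed library, but both levels lay under 20 CPM. The plot of ratios across types shows Lpl on opposite sides of 0 in MSC-gated cells and in fibroblasts of the Abcg2 pair.

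**Figure D5:**
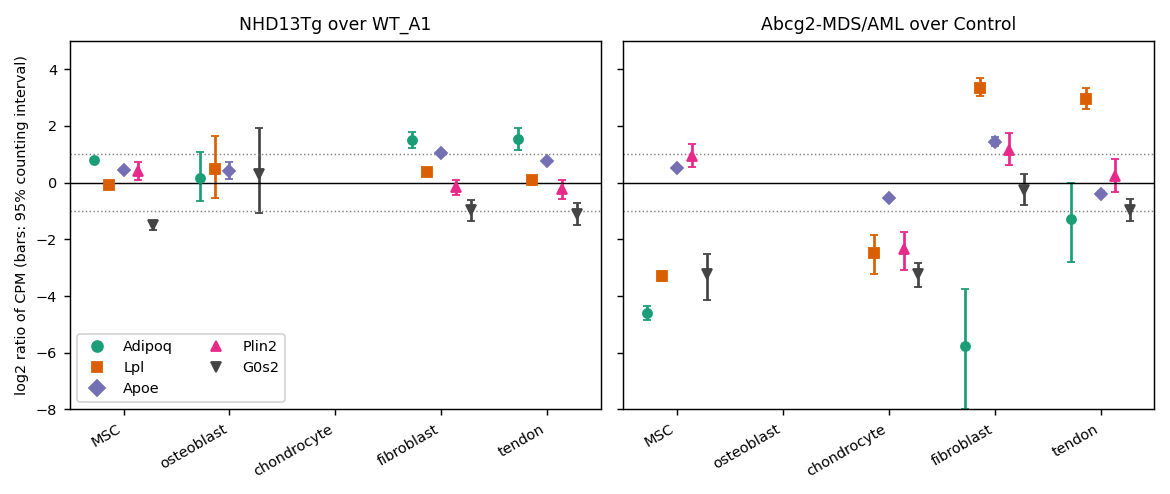
Log2 ratio of CPM, model over wild-type library, for 5 genes across the gated types in both pairs, with 95% counting intervals (the interval of Adipoq in Abcg2 fibroblasts runs past the lower edge) and dotted lines at 2-fold. Types with under 50 cells in a library, pairs of sums with under 20 UMIs and ratios against 0 UMIs are not drawn. Lpl stands at -3.29 in MSC-gated cells and 3.35 in fibroblasts of the Abcg2 pair.

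A shift shared by both models was tested in MSC-gated cells with edgeR, with the pair as a block and 1 residual degree of freedom. Of 10520 genes, 0 were higher and 0 lower at an adjusted p under 0.05 (0% each), 412 had an unadjusted p under 0.05, and DESeq2 called 5 higher and 8 lower. Under alternative settings 1 of 45 folds of the 9 genes was called. In the main fit all 9 genes had an edgeR adjusted p of 0.952. The nearest were Hilpda, with a log2 fold of 1.19 (SE 0.242), and G0s2, with -2.14 (SE 0.439), each in the same direction in 2 of 2 pairs, although Hilpda turned in the Abcg2 pair with the narrower gate. Adipoq, which differed in opposite directions in the pairs, had a log2 fold of -1.77 with an SE of 1.65.

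A further 80 genes of adipogenesis and lipid handling were read in MSC-gated cells, of which 44 reached 20 CPM in each pair. In the NHD13 pair 0 of 44 were past the size rule in either direction, where 1.04% of all genes were higher and 1.88% lower, with a median log2 ratio of -0.06. In the Abcg2 pair 7 were higher and 9 lower, where 6.5% of all genes were higher and 12.5% lower, with a median of -0.13. The higher genes included Apod, an apolipoprotein, at 3465 against 130 CPM, Fabp4, a fatty acid carrier, at 319 against 63.7, Cfd, the adipocyte protease adipsin, at 107 against 7.60 (all from the 1.84% of the 163 cells needing Hp that held a UMI, which is 3 cells), Scd1, a fatty acid desaturase, at 106 against 43.2, and Pnpla2, which encodes ATGL, at 38.8 against 14.6 CPM. The lower genes included Ebf1 (451 against 972 CPM) and Ebf3 (103 against 548 CPM), transcription factors of marrow stroma, the inhibitors of adipogenesis Klf2 (352 against 808 CPM) and Klf3 (63.1 against 143 CPM), and Pdzrn4 (20.7 against 154 CPM). By role, uptake and transport had 3 of 7 measured genes higher and 0 lower, the regulators 1 of 12 higher and 3 lower, the inhibitors 0 of 6 higher and 2 lower, droplet coat and lipolysis 1 of 5 higher and 1 lower, synthesis 1 of 8 higher and 1 lower, and adipokines and their receptors 1 of 6 higher and 2 lower, to be read against the same shares of all genes. With the gate on Cxcl12 and Kitl alone, Apod had a log2 ratio of 6.03, Fabp4 (0.23) and Ebf1 (-0.95) no longer passed the rule and Cfd had 0 UMIs in the Abcg2-MDS/AML cells.

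Among markers of mature adipocytes in MSC-gated cells, Cidec and Lep were at 0 in all 4 libraries, and Plin1 was at most 0.584 CPM. The list of 8 markers summed to 112, 77.3, 83.6 and 438 CPM, most of it Fabp4 and, in the last, also Cfd. In Control, Fabp4 held 63.7 CPM, Adrb3 9.93 CPM and Cfd 7.60 CPM. In the Abcg2 pair both measured members, Fabp4 and Cfd, were higher by the size rule.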

How the data were processed

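Single-cell libraries of the 3' v3.1 chemistry were processed by the authors; the submitters' processing notes name Cell Ranger 3.1.0 and Seurat 3.2.3. The deposited matrices are raw UMI counts by gene and barcode. The build they were aligned to is not given in the sources used here. Counts were summed per gate and library in Python 3.11.15 (numpy 2.4.6, scipy 1.17.1, pandas 2.3.3). Intervals at the 95% level are exact Poisson for CPM, Clopper-Pearson for shares and conditional binomial for log2 ratios of CPM, with 0.5 added to each count, and cover counting error only. Ratios were computed for types with at least 50 cells in both libraries, and sums of at least 20 cells entered the type tests. Across types and across both pairs, edgeR 4.0.16 (glmQLFit and glmQLFTest, TMM, filterByExpr) was used in R 4.3.3, with DESeq2 1.42.0 as an alternative. P-values treat libraries as samples, and the labels do not say how many animals each held. The genes and lists were chosen with earlier results of these data known. Named were all members everywhere, and up to 5 further lipid genes per direction and pair past the 2-fold rule with the highest CPM. Alternatives changed depth, mitochondrial and gate limits, scaling, filters, free RNA and the libraries used. Doublets were not called, and cell names were rebuilt from gates.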

Additional observations from a re-analysis of the deposited data

Results flagged for a closer look

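Adipoq in fibroblast-gated cells moved in opposite directions in the 2 pairs, with a log2 ratio of 1.503 for NHD13Tg over WT_A1 and -5.75 for Abcg2-MDS/AML over Control. The difference between the pairs was not tested. The first value rests on 351 and 154 UMIs and the second on 1 and 44 UMIs. The fibroblast sums could include cells that also passed the MSC gate. In fibroblasts passing exactly 1 gate, 0 members were higher by the size rule in the NHD13 pair and 0 lower in the Abcg2 pair. Without the top cell of each library the second ratio was -5.51 and no longer passed the rule, which requires at least 20 CPM in 1 library. MSC-gated cells showed the same signs, 0.80 and -4.59, and Adipoq in free RNA stood at 447 against 160 CPM in the first pair and 13.8 against 122 CPM in the second.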

How the results depend on the processing

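No paired analysis was possible because, within a model and its wild type, each group has 1 library and the labels give no replicate numbers that groups share. The test across both models has the model and its wild type as a block, and without that block it also called 0 genes higher and 0 lower, with 392 at an unadjusted p under 0.05.

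Counts of genes past 2-fold moved as follows. A minimum of 4000 UMIs gave 1 higher in NHD13 osteoblasts, 1 higher in Abcg2 MSC-gated cells, 2 lower in Abcg2 fibroblasts and 1 lower in Abcg2 tendon cells. A minimum of 1000 UMIs gave 1 lower in Abcg2 tendon cells, and a limit of 5% mitochondrial UMIs 1 higher in Abcg2 MSC-gated cells. In cells passing exactly 1 gate the NHD13 fibroblasts and tendon cells had 0 higher, Abcg2 MSC-gated cells 2 higher, Abcg2 fibroblasts 0 lower, and the further lipid genes of the Abcg2 pair 4 higher. Doubled gates gave 1 further lipid gene higher in the NHD13 pair, 2 members higher in NHD13 osteoblasts, 1 in fibroblasts and 0 in tendon cells, 0 lower in NHD13 tendon cells, and in the Abcg2 pair 1 higher in MSC-gated cells, 2 lower in chondrocytes and 1 lower in tendon cells. TMM scaling gave 2 higher in Abcg2 MSC-gated cells, 5 lower further lipid genes and 1 member higher in Abcg2 chondrocytes, where it shifts ratios by 0.38. Subtracting free RNA left 1 higher in NHD13 fibroblasts and 0 in tendon cells. Without a filter on CPM, 1 further lipid gene was higher and 2 lower in the NHD13 pair, and 4 members were lower in Abcg2 chondrocytes and 1 in tendon cells. The cause was not tested.

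The gate on Cxcl12 and Kitl alone gave 1 further lipid gene higher in the NHD13 pair and reversed Apoe (-0.24), Hilpda (-0.63) and Cfd (-2.55) in the Abcg2 pair. Alternatives chosen after seeing the data were MSC-gated cells with a Lepr UMI, which gave 1 further lipid gene higher in the NHD13 pair, 1 member higher in the Abcg2 pair, 6 further lipid genes lower there against 9, Klf3 (-0.85) and Scd1 (0.97) no longer past the rule and Cfd at -3.48, cells without S100a8, S100a9 or Lyz2, which gave 1 member higher in the Abcg2 pair, and each library without its top cell. Lpl in the NHD13 pair turned to 0.00701 with TMM scaling, and Hilpda over chondrocytes to 0.18 without the library block. Gene contrasts called between types ranged from 27024 to 38178 with 1 library left out, against 40802, the lowest without NHD13Tg, and member contrasts from 38 to 53, against 46. In the joint test DESeq2 called 5 higher and 8 lower, and no filter on low counts gave 19 and 19. Of 45 joint folds of members under alternatives, 1 was called. Of 426 pair ratios under alternatives, 392 kept their direction and side of the rule, as did 341 of 360 type folds.

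With 1 library per group, differences within a pair cannot be told apart from differences between libraries, and the depth limits genes with few UMIs, such as G0s2 (15), Pparg (18) and Cebpa (29) in Abcg2-MDS/AML MSC-gated cells. Levels of Hilpda in Control, Plin2 in WT_A1 and G0s2 in Abcg2-MDS/AML were within 1.10 times those of free RNA or below.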
